A study of Arabidopsis thaliana with 24 samples.

Results

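GPT2 is a glucose 6-phosphate/phosphate translocator of the plastid envelope, and its transcript was followed over the 8 groups of genotype, nitrogen and light in seedlings of Arabidopsis thaliana. The gene was chosen by its name, and 1 probe set among the 22746 tested carries it. The name comes from the study's own list of light-regulated genes and not from the array's annotation table, so the light response below is no independent evidence that GPT2 responds to light. The locus is AT1G61800, on chromosome 1 of the TAIR10.1 assembly from 22824414 to 22826902, with 2 transcripts annotated by RefSeq over 2489 bases.

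Glucose 6-phosphate translocators exchange glucose 6-phosphate in the cytosol for inorganic phosphate in the plastid. The imported sugar phosphate can feed starch synthesis or the oxidative pentose phosphate pathway inside the plastid, which supplies reducing power for nitrite reduction among other uses. In Arabidopsis leaves, GPT2 is known as a transcript that responds to sugars and to a shift into brighter light, whereas its paralogue GPT1 is needed for pollen and embryo sac development.

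The mutant bzip1-1, in the Columbia (Col-0) background, has a T-DNA insertion in the only exon of the gene for the transcription factor bZIP1, and WT-sib is a sibling that lacks the insertion, so that each genotype was a single line. Seedlings of both grew for 14 days with 0.5 mM KNO3 and 3 mM sucrose, in cycles of 16 h light and 8 h dark, at 50 µE of light and 22 °C. At the start of the light period they were moved for 2 h to plates with 20 mM each of KNO3 and NH4NO3 (+N) or with KCl instead (-N), which stood in light (+L) or were wrapped in foil (-L). The groups were bzip1-1 +N+L, WT-sib +N+L, bzip1-1 -N+L, WT-sib -N+L, bzip1-1 +N-L, WT-sib +N-L, bzip1-1 -N-L and WT-sib -N-L, each with 3 ATH1 arrays of whole-seedling RNA, numbered 1 to 3 in the labels, that the methods describe as independent experiments.

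Values are signal intensities of Affymetrix's Microarray Analysis Suite (MAS) on a linear scale. They were scaled by the authors so that the trimmed mean was 500 on every array, and the array medians lay between 181.9 and 216. Log2 changes come from a limma fit over all 24 arrays. The standard error (SE) stands beside each, with a two-sided p adjusted over all probe sets, and a change was called where that p was under 0.05. The probe set of bZIP1 itself was not named by the tables used here, so the mutation could not be checked on a probe set known to be its own. Of 8 leaf and 8 root marker genes, 3 and 2 were named. The leaf enzymes RCA, PRK and SBPASE summed to 32575 to 60679 in light (median 47192) and 35304 to 58998 in the dark (median 43114). The root genes PYK10 and EXPA7, with median signals of 8968 and 157, summed to 7267 to 14769 in light (median 10161) and 4133 to 14008 in the dark (median 7018), and their part in the GPT2 result was not tested. None of the 5 was called for light. In bulk RNA, fewer cells with a transcript and less of it per cell cannot be told apart.

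A pair of arrays went against their labels in other transcripts. In light, the unnamed probe set whose genotype term was lowest read 471 on bzip1-1 -N+L number 1 and 68.6 to 123 on the other 5 bzip1-1 arrays. It read 56.5 on WT-sib -N+L number 1 and 519 to 6034 on the other 5 WT-sib arrays. AT3G56290 had 1806 on the same bzip1-1 array and 6747 to 11651 on the other 5, and 7861 on the same WT-sib array against 1656 to 2687 on the other 5. For both transcripts, each array thus read near or within the range of the other genotype, as if the arrays were exchanged, which was not tested. If they were, the GPT2 signals of 1565 (bzip1-1) and 4611 (WT-sib) on them would change places. The labels were used as given, and the main GPT2 values that rest on these arrays are also given without both.

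Light was the condition under which GPT2 differed most. In -N medium, GPT2 had signals of 1565, 1966 and 1088 on the bzip1-1 arrays in light (numbers 1, 2 and 3), against 65.5, 97.0 and 45.6 in the dark. On the WT-sib arrays it had 4611, 2236 and 1187 in light and 88.2, 152 and 63.9 in the dark. In -N medium the light and dark arrays of each genotype did not overlap, as was so for 25.5% of all probe sets in bzip1-1 and 19.2% in WT-sib.

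In +N medium, the bzip1-1 arrays had GPT2 signals of 1196, 1556 and 324 in light and 74.8, 424 and 68.5 in the dark. The WT-sib arrays had 1282, 1920 and 170 in light and 64.8, 28.4 and 77.0 in the dark. Here the bzip1-1 groups overlapped, because the dark array of number 2 read above the light array of number 3, and the WT-sib groups did not (nor did those of 21.6% of all probe sets). Over all groups GPT2 ran from 170 to 4611 in light (median 1419, n = 12) and from 28.4 to 424 in the dark (median 71.7, n = 12). The lowest dark signal lay above the 10th percentile of signals on its array, which was between 10.4 and 18.6 on the 24 arrays. No detection calls were used here, so whether the dark signals exceed background was not tested, and folds against them are given as measured.

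**Figure D1:**
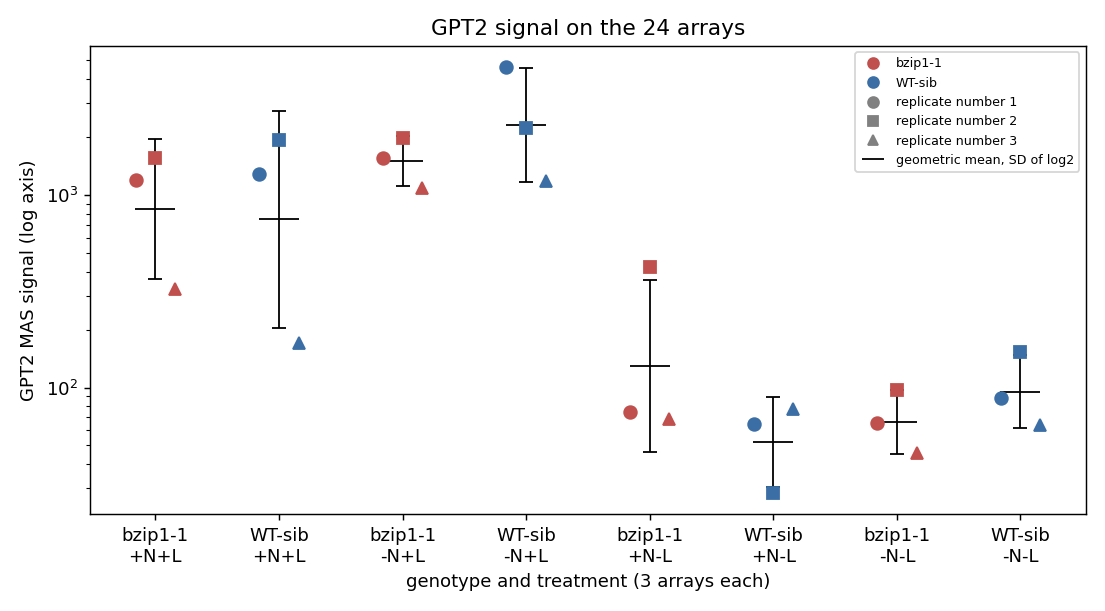
GPT2 signal (log axis) on each of the 24 arrays by genotype and treatment, with the replicate number as the marker shape; the horizontal lines are geometric means and the bars 1 SD of the log2 signal (n = 3). The +N+L arrays of number 3, at 324 in bzip1-1 and 170 in WT-sib, lie below all other light arrays, which start at 1088.

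Averaged over nitrogen and genotype, the log2 signal of GPT2 rose in light by 3.91 (SE 0.40, adjusted p = 2.8e-07), which is 15.1-fold with a 95% interval of 8.41 to 27.0. Light raised or lowered 24.9% of all probe sets, and the rise of GPT2 ranked 12 among 22746. In 12 of 12 pairs of arrays that share genotype, nitrogen and number, GPT2 was higher in light, as were 6.3% of all probe sets. An exact two-sided permutation test of GPT2 alone, with light labels exchanged within genotype and nitrogen, gave p = 2.5e-05 (0.000175 after Benjamini-Hochberg adjustment over 7 terms). The smallest p this test could give is 1.25e-05. Without the pair of arrays that went against their labels the rise was 3.78 (SE 0.43, adjusted p = 2.7e-06).

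Within each genotype and nitrogen state the rise differed in size and in its call. In -N medium, GPT2 rose in light by 4.50 in bzip1-1 (SE 0.81, adjusted p = 0.00107) and by 4.60 in WT-sib (SE 0.81, adjusted p = 0.0011). Both rises ranked 8 of all probe sets, in comparisons where 8.25% (bzip1-1) and 6.1% (WT-sib) were called. Without the pair of arrays that went against their labels, the rises were 4.47 (adjusted p = 0.00542) and 4.10 (adjusted p = 0.0103). In an unmoderated fit to linear signal the bzip1-1 difference was 1470 signal units and was not called (adjusted p = 0.189).

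In +N medium, the rise of 3.84 in WT-sib was called (SE 0.81, adjusted p = 0.0056, with 6.4% of probe sets called) and ranked 17. The change of 2.71 in bzip1-1 was not (SE 0.81, adjusted p = 0.0675, with 3.71% called), and its 95% interval ran from 1.02 to 4.39. With the array numbers as a block in the limma fit, this change was called (2.71, SE 0.63, adjusted p = 0.00889). These calls moved with single arrays. For WT-sib the value was 3.16 (adjusted p = 0.0510) without array number 2 of WT-sib +N+L and 4.91 (adjusted p = 0.000428) without its number 3, and the unmoderated fit to linear signal did not call it (1067 signal units, adjusted p = 0.418). For bzip1-1 it was 3.56 (adjusted p = 0.0241) without array number 2 of bzip1-1 +N-L and 3.40 (adjusted p = 0.0330) without number 3 of bzip1-1 +N+L. Leaving out number 3 of WT-sib +N+L left the bzip1-1 change at 2.71 and gave it an adjusted p of 0.0251.

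The light response itself was not shown to differ between these states. L*N, the response in +N medium minus that in -N medium, was -1.28 (SE 0.81, adjusted p = 1.00), and L*G, the bzip1-1 response minus the WT-sib response, was -0.62 (SE 0.81, adjusted p = 1.00). The 95% interval of L*N, from -2.96 to 0.41, allows a much smaller light response with nitrogen but only a slightly larger one (up to 1.32-fold). That of L*G, from -2.30 to 1.06, allows sizeable differences either way. Without the pair of arrays that went against their labels, the terms were -1.01 (L*N, SE 0.87) and -0.39 (L*G, SE 0.87). For L*N, 0.0396% of probe sets were called. For L*G it was 0.0% by limma and 0 by an unmoderated fit of the same model, with 390 (1.71%) at an unadjusted limma p under 0.05. A comparison of 3 arrays with 3 cannot give an exact permutation p below 0.1.

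**Figure D2:**
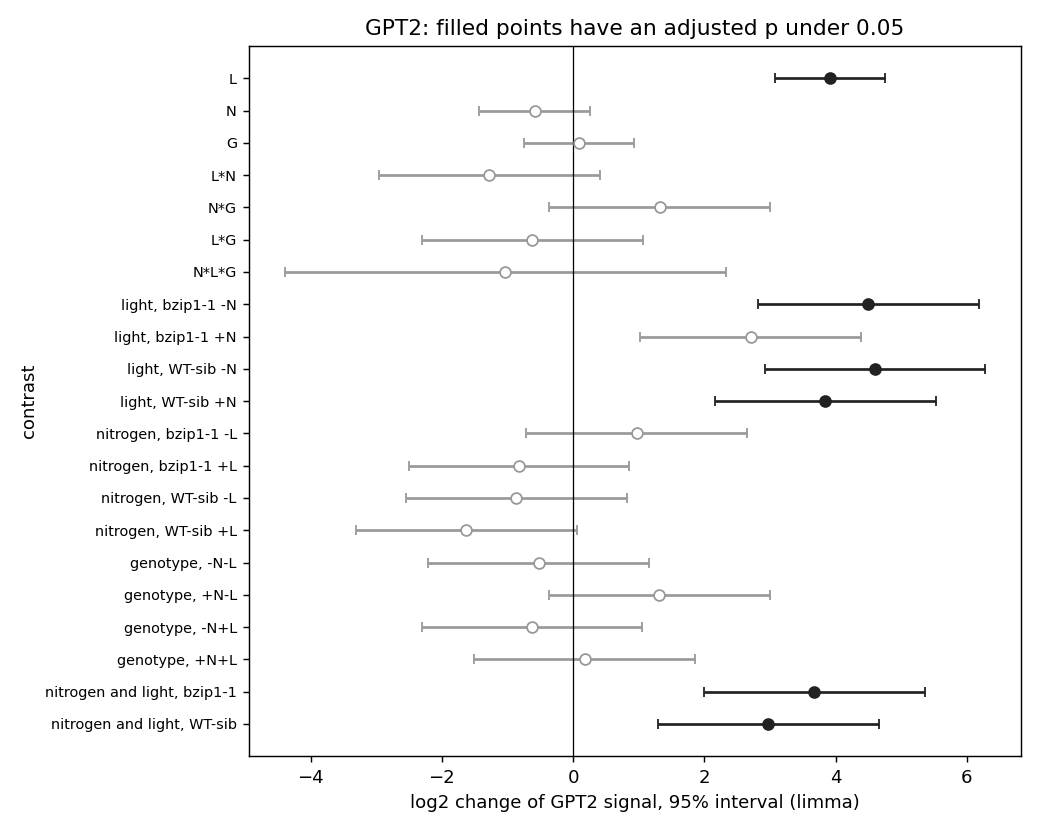
Log2 changes of GPT2 with 95% intervals from the limma fit, for the terms of the model (L, light; N, nitrogen; G, genotype; products are differences of responses) and for comparisons within single groups; filled points have an adjusted p under 0.05. Filled points are the light term, the light response in 3 of 4 states and the combined treatment in both genotypes.

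Pair by pair, and with the labels as given, the light response of GPT2 was steadiest in bzip1-1 without nitrogen and widest in WT-sib with nitrogen. In bzip1-1 -N, GPT2 was 20.3-fold to 23.9-fold higher in light over the 3 pairs, and in WT-sib -N it was 14.7-fold to 52.3-fold higher. The -N folds of number 1 (23.9 in bzip1-1 and 52.3 in WT-sib) rest on the arrays that went against their labels. Which group was steadiest or widest therefore depends on those labels. Numbers 2 and 3 alone had -N folds of 20.3 and 23.9 in bzip1-1 and of 14.7 and 18.6 in WT-sib. In bzip1-1 +N the folds ran from 3.67 to 16.0, and in WT-sib +N from 2.202 to 67.7. With the labels as given, the smallest and the largest of the 12 folds thus lay in the same group. The 3003 probe sets called higher in light had median log2 changes of 0.48 to 0.95 in the 12 pairs. In the pairs of number 3 with nitrogen, where GPT2 changed by 2.24 (bzip1-1) and 1.14 (WT-sib), these medians were 0.72 and 0.56, within that range.

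**Figure D3:**
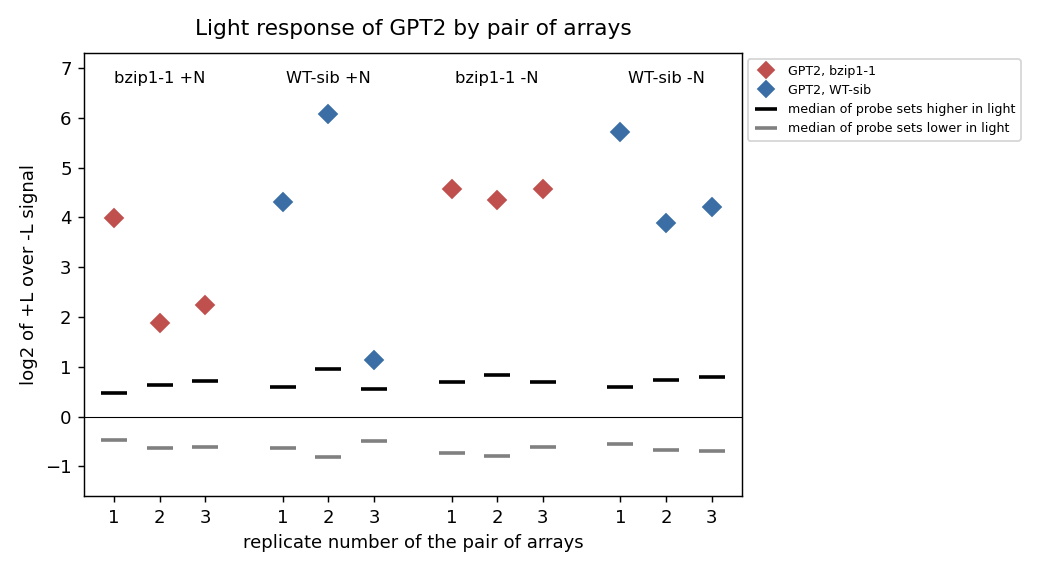
Log2 of GPT2 signal in light over that in the dark for each of the 12 pairs of arrays (diamonds), with the median log2 change of the probe sets called higher (black) and lower (grey) in light in the same pair. GPT2 lies above the black line in every pair, from 1.14 in WT-sib +N number 3 to 6.08 in WT-sib +N number 2.

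Ordered by geometric mean, GPT2 stood at 2305 in WT-sib -N+L, 1496 in bzip1-1 -N+L, 845 in bzip1-1 +N+L and 747 in WT-sib +N+L. The dark groups followed with 129 in bzip1-1 +N-L, 94.97 in WT-sib -N-L, 66.2 in bzip1-1 -N-L and 52.1 in WT-sib +N-L. All 4 light groups stood above all 4 dark groups. The arrays of every pair of neighbours in this order overlapped, and only the step between WT-sib +N+L and bzip1-1 +N-L (2.53 on the log2 scale) was larger than the SD of either group. On the linear scale the means were 1025 ± 633 in bzip1-1 +N+L, 1124 ± 886 in WT-sib +N+L, 1540 ± 440 in bzip1-1 -N+L and 2678 ± 1754 in WT-sib -N+L (SD, n = 3 each). In the dark they were 189 ± 203 in bzip1-1 +N-L, 56.7 ± 25.3 in WT-sib +N-L, 69.4 ± 25.9 in bzip1-1 -N-L and 101 ± 45.5 in WT-sib -N-L (SD, n = 3 each). The -N+L means on both scales include the arrays that went against their labels (1565 in bzip1-1 and 4611 in WT-sib). Which genotype stood higher in -N+L therefore depends on those labels. Without these arrays the log2 difference in -N+L, bzip1-1 minus WT-sib, was -0.16 (SE 1.00).

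A change of GPT2 with nitrogen was not shown after adjustment over all probe sets. Averaged over light and genotype, GPT2 was 0.59 lower with nitrogen on the log2 scale (log2 change -0.59, SE 0.40, adjusted p = 0.753), while 0.954% of all probe sets were called. In light, the change was -0.82 in bzip1-1 (SE 0.81, adjusted p = 1.00) and -1.62 in WT-sib (SE 0.81, unadjusted p = 0.0575, adjusted p = 0.855), with 0.224% and 0.114% of probe sets called. In the dark, it was 0.97 in bzip1-1 (SE 0.81, adjusted p = 0.920) and -0.87 in WT-sib (SE 0.81, adjusted p = 1.00), with 0.00879% called in each. These values moved with single arrays. The bzip1-1 change in the dark was 0.11 without number 2 of bzip1-1 +N-L, and that in light was -0.13 without number 3 of bzip1-1 +N+L. The WT-sib change in light was -0.56 without number 3 of WT-sib +N+L and -2.31 without number 2, and that in the dark was -0.43 without number 2 of WT-sib +N-L. Without the pair that went against their labels, the nitrogen term was -0.45 and the change in light -0.79 in bzip1-1 and -1.12 in WT-sib.

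In light, GPT2 was lower with nitrogen in 6 of 6 pairs of arrays. In bzip1-1 the folds of +N+L over -N+L were 0.765, 0.791 and 0.298 for numbers 1, 2 and 3, and in WT-sib they were 0.278, 0.858 and 0.143. Of all probe sets, 6.32% were lower with nitrogen in the same 6 pairs. Over both genotypes, a comparison chosen after these values were seen, the change in light was -1.22 (SE 0.57, 95% interval -2.41 to -0.035, unadjusted p = 0.0442, adjusted p = 0.589, with 0.655% of probe sets called). In the dark it was 0.05 (SE 0.57, adjusted p = 1.00, with 0.0703% called). Once the +N+L arrays of number 3 were left out the change in light was -0.34 (SE 0.48, adjusted p = 0.879), and without the pair that went against their labels it was -0.96 (SE 0.65, adjusted p = 0.692).

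GPT2 was higher with nitrogen and light together than with neither in both genotypes, a comparison that includes the light response. Light without nitrogen gave 4.50 in bzip1-1 and 4.60 in WT-sib. Nitrogen in light changed GPT2 by -0.82 and -1.62, neither of which was called. Against -N-L, GPT2 in +N+L was higher by 3.67 in bzip1-1 (SE 0.81, adjusted p = 0.00601, with 7.98% of probe sets called) and by 2.98 in WT-sib (SE 0.81, adjusted p = 0.0263, with 7.17% called). Without array number 3 of bzip1-1 +N+L the bzip1-1 value was 4.37 (adjusted p = 0.00355). The WT-sib call was lost without number 1 or 3 of WT-sib -N-L (2.92 and 2.69, adjusted p = 0.0694 and 0.113) and without number 1 or 2 of WT-sib +N+L (2.59 and 2.30, adjusted p = 0.117 and 0.168). Without number 3 of WT-sib +N+L it was 4.05 (adjusted p = 0.00228). The unmoderated fit to linear signal called neither genotype (956 signal units in bzip1-1 and 1022 in WT-sib, adjusted p = 0.452 and 0.422), and on log2 signal it did not call WT-sib (adjusted p = 0.0566), nor did limma on the WT-sib arrays alone (adjusted p = 0.0561).

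The genotypes were not shown to differ in GPT2 under any treatment. Averaged over the 4 treatments, bzip1-1 minus WT-sib was 0.09 (SE 0.40, 95% interval -0.75 to 0.93, adjusted p = 1.00), and 0.00879% of probe sets were called. The difference was 0.18 in +N+L, -0.62 in -N+L, 1.31 in +N-L and -0.52 in -N-L (SE 0.81 and adjusted p = 1.00 for each). In these 4 comparisons 0.0% of probe sets were called by limma and 0 by an unmoderated fit of the same model. An unadjusted limma p under 0.05 was found for 353 to 813 (1.55% to 3.57%). The unnamed probe set of lowest genotype term read 169 to 411 on the bzip1-1 dark arrays and 4702 to 17014 on those of WT-sib. It was called in neither dark comparison, so the absence of calls does not show that no transcript differed. Without the pair of arrays that went against their labels the genotype difference of GPT2 was -0.16 in -N+L (SE 1.00) and 0.20 over the 4 treatments (SE 0.43).

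By pairs of arrays, GPT2 was lower in bzip1-1 in 9 of 12 and higher in 3. It was lower in 3 of 3 pairs in -N-L, at 0.638 to 0.743 of the WT-sib signal (10.4% of probe sets were lower in all 3), and in 3 of 3 pairs in -N+L, at 0.339 to 0.916 (9.91%). The 0.339 is the -N+L pair of number 1, which went against its labels, and without it GPT2 was lower in 8 of 11 pairs and in 2 of 2 in -N+L, at 0.879 and 0.916. With the labels of that pair exchanged, its fold would be 2.95, higher in bzip1-1. The largest fold of all was 14.9, in +N-L number 2, where GPT2 had a signal of 424 on the bzip1-1 array and 28.4 on the WT-sib array. These are the highest and the lowest dark signals, and the other 10 dark arrays lay between 45.6 and 152. Without array number 2 of bzip1-1 +N-L the genotype difference in +N-L was 0.46 (adjusted p = 1.00).

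N*G, the nitrogen response of bzip1-1 less that of WT-sib, was 1.32 (SE 0.81, adjusted p = 1.00), and N*L*G, its value in light less its value in the dark, was -1.03 (SE 1.61, adjusted p = 1.00). For both terms 0.0% of probe sets were called by limma and 0 by an unmoderated fit of the same model. An unadjusted limma p under 0.05 was found for 613 (2.69%) and 408 (1.79%). With genotype labels exchanged within each treatment, the exact permutation p of GPT2 alone was 0.136 for N*G and 0.572 for N*L*G, or 0.475 and 0.667 after adjustment over the 7 terms. Exchanged within pairs of 1 number, they gave 0.0186 and 0.631 (0.0649 and 0.736 adjusted). Such exchanges assume no genotype difference in any treatment, so these p-values do not test the interactions alone. Leaving out 1 array at a time moved N*G between 0.78 (without number 3 of WT-sib +N+L) and 1.66 (without number 3 of bzip1-1 +N+L). It moved N*L*G between -2.10 (without number 3 of WT-sib +N+L) and -0.18 (without number 2 of bzip1-1 +N-L). Without the pair that went against their labels they were 1.08 and -1.50.

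GPT2 varied more between arrays of a group than most probe sets of like brightness. Its residual SD was 1.10 on the log2 scale, against a median of 0.311 over the 1000 probe sets closest in mean log2 signal, of which 98.1% varied less. Its deviations differed between the array numbers. On the 8 arrays of number 3 the mean log2 deviation of GPT2 from its group mean was -0.80, with 7 of 8 arrays below the mean, whereas it was 0.22 for number 1 and 0.58 for number 2.

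The largest drops were on the +N+L arrays of number 3. There GPT2 was 4.21-fold lower in bzip1-1 and 9.25-fold lower in WT-sib than the geometric mean of numbers 1 and 2 of the same group. Only 35 of 22746 probe sets were lower than GPT2 by this measure in both genotypes. The sum of the 3 leaf markers on these arrays was 47869 in bzip1-1 and 45243 in WT-sib, within the range of the light arrays, and that of the 2 root markers was 9320 and 8856, also within it. With these arrays left out, an alternative chosen after the data were seen, the rise of GPT2 in light was 4.35 (SE 0.32, adjusted p = 1.2e-08), and the light response in +N medium was 3.40 in bzip1-1 (adjusted p = 0.0077) and 4.91 in WT-sib (adjusted p = 0.000222).

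The transcripts most like GPT2 over the arrays were picked by Pearson's r of log2 signal over all 24 arrays, among 8083 probe sets with a single locus and a mean log2 signal above the 40th percentile. The coefficients describe arrays that fall into a light and a dark cluster and share their treatment, so they are given with those within each cluster (n = 12) and without p-values. The closest were AT2G46420 (r = 0.956 over all arrays, 0.856 in light, 0.835 in the dark) and AT5G47060 (0.956, 0.855 and 0.781). AT1G67360 (0.947, 0.924 and 0.732) and APL3 (0.945, 0.837 and 0.810) followed. APL3 encodes a large subunit of ADP-glucose pyrophosphorylase, the enzyme that makes the glucosyl donor for starch, and was the 1 gene of the carbohydrate lists below that was also among the closest 8.

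The other 4 were TCP2, a TCP transcription factor of leaf development (0.941, 0.749 and 0.629), AT1G73630 (0.940), AT1G77280 (0.940) and AT1G69480 (0.938). Of the 8083, 37 had an r above 0.9, and the 95th percentile was 0.772. The 4 most opposite were AT3G49790 (-0.953), CLC-A (-0.950), ATL8 (-0.949) and AT5G59830 (-0.948). CLC-A encodes a nitrate/proton exchanger of the vacuole membrane, and ATL8 a RING-type protein of the ATL family. All 12 were called for light, with log2 changes of 1.25 for AT1G69480 to 2.45 for AT1G67360 among the 8, and of -0.72 for AT5G59830 to -3.01 for AT3G49790 among the 4.

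The +N+L arrays of number 3 were among the 24 over which these transcripts were chosen, so their values there are a description that follows in part from the choice. AT1G67360 had signals of 1393 in bzip1-1 and 1084 in WT-sib there, and 2355 to 8068 on the other 10 light arrays. TCP2 had 524 and 441, against 594 to 1702, and ATL8 had 290 and 462, against 61.0 to 201. APL3 had 258 in bzip1-1, inside the range of 249 to 1124 on the other light arrays, and 146 in WT-sib, below it. On both arrays, each of the other 8 of these 12 transcripts lay outside the range of the other light arrays, towards its dark level.

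On the +N-L arrays of number 2, where GPT2 had 424 in bzip1-1 and 28.4 in WT-sib, APL3 had 225 and 42.9, and its other dark arrays ran from 63.8 to 256. AT1G67360 had 1316 and 213, with 250 to 1614 on the other dark arrays. ATL8 ran the other way, at 675 and 2233, with 444 to 1661 on the others. In these 3, the WT-sib array lay outside the range of the other dark arrays and the bzip1-1 array inside it, which was not so for all 12. The bzip1-1 array lay outside for 5 of the 12, the WT-sib array for 5, with AT5G59830 in both counts, and neither for TCP2, AT3G49790 and CLC-A. AT2G46420, for example, had 548 in bzip1-1, above the 155 to 392 of the other dark arrays, and 174 in WT-sib, inside them.

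**Figure D4:**
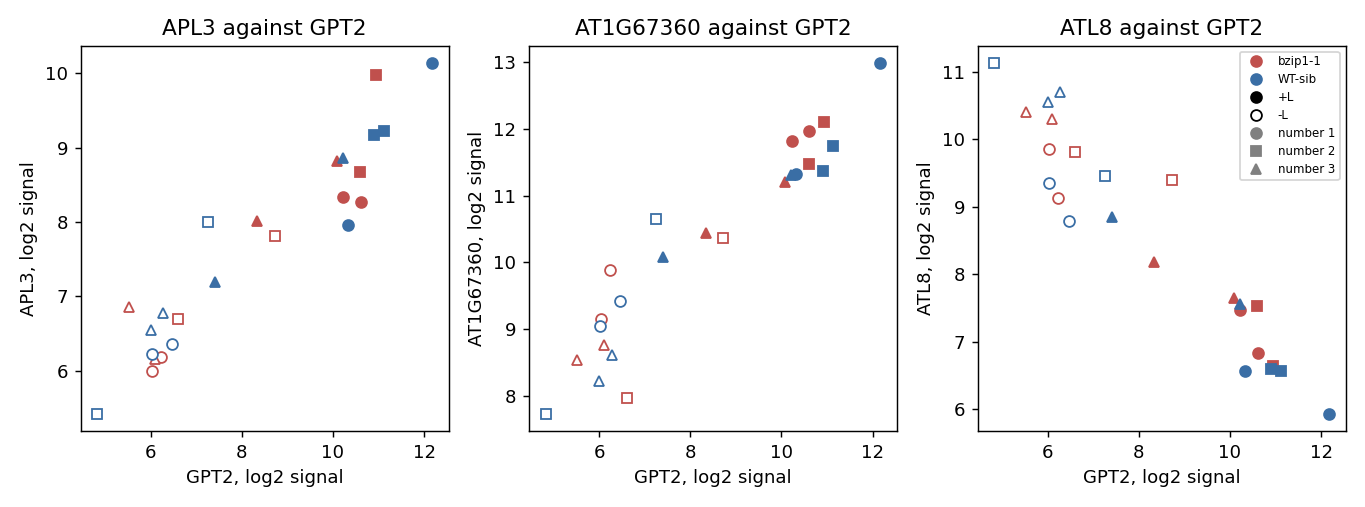
Log2 signal of APL3, AT1G67360 and ATL8 against that of GPT2 on the 24 arrays; colours are genotypes, filled symbols are light and open symbols dark, and shapes are replicate numbers. The filled triangles of lowest GPT2 are the +N+L arrays of number 3, of which the WT-sib array (GPT2 170) lies within the dark range of both axes in each panel.

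With the group means removed, the transcripts whose deviations were most like those of GPT2 over the 24 arrays were AT3G15350 (r = 0.843), AT4G17670 (0.831), AT5G47060 (0.808) and AT2G46420 (0.807). Arrays of a number share these deviations in part, so the points are not independent. In light AT3G15350 ran from 192 to 955 and in the dark from 153 to 481, and AT4G17670 from 227 to 1379 and from 116 to 719. The lowest light values of both were on the WT-sib +N+L array of number 3.

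Of 91 genes listed for plastid phosphate transport and for starch, sugar and oxidative pentose phosphate metabolism, 31 were named on the array, GPT2 included. Of the other 30, 18 are named only by the study's tables of regulated genes, so the shares below cannot be read as shares of a pathway. For light, 13.2% of all probe sets were called higher and 11.7% lower, and the median log2 change of all was 0.0035. All changes in the lists are on the log2 scale. The only other plastid phosphate translocator named was XPT (AT5G17630), which exchanges xylulose 5-phosphate. XPT rose in light by 0.60 (SE 0.20, adjusted p = 0.0269), with signals of 368 to 766 in light and 206 to 589 in the dark. GPT1 and the triose phosphate and phosphoenolpyruvate translocators were not analysed here.

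In starch synthesis, 4 of the 5 genes measured rose in light, 0 fell and 1 was not called (median 0.59). GBSS1, the granule-bound starch synthase that makes amylose, rose by 2.46 (SE 0.26, adjusted p = 5e-07), with signals of 4687 to 14825 in light and 702 to 3012 in the dark, which did not overlap (3.59% of all probe sets did not overlap between the 12 light and the 12 dark arrays). APL3 rose by 2.13 (SE 0.29, adjusted p = 8.6e-06), with signals of 146 to 1124 in light and 42.9 to 256 in the dark. SS1, a soluble starch synthase, rose by 0.59 (SE 0.09, adjusted p = 4.4e-05). Of the 5, 2 (GBSS1 and SS1) are named only by the study's tables of regulated genes, so the count for light was partly fixed by the naming. For nitrogen 0 of the 5 were called and 1 had an unadjusted p under 0.05, against 0.954% and 9.42% of all probe sets.

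In starch breakdown, 3 of 8 genes rose, 1 fell and 4 were not called (median 0.28). The glucan phosphatase SEX4 rose by 0.70 (SE 0.21), the glucanotransferase DPE2 by 0.67 (SE 0.10) and the amylase AMY2 by 0.54 (SE 0.15). BAM4, a beta-amylase-like plastid protein, fell by 0.98 (SE 0.17, adjusted p = 0.000214). The genes called, SEX4, DPE2, AMY2 and BAM4, are among the 5 of 8 named only by the study's tables of regulated genes, drawn from these same arrays. The count for light was thus partly fixed by the naming. For nitrogen 0 of the 8 were called and 2 had an unadjusted p under 0.05, against 0.954% and 9.42% of all probe sets.

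In the oxidative pentose phosphate pathway, 2 of 7 genes rose in light, 2 fell and 3 were not called (median 0.27). The glucose 6-phosphate dehydrogenase gene G6PD2 rose by 0.57 (SE 0.16) and the 6-phosphogluconate dehydrogenase gene PGD2 by 0.23 (SE 0.08). PGL1, a 6-phosphogluconolactonase, fell by 2.203 (SE 0.27, adjusted p = 2.7e-06), and G6PD4, a further dehydrogenase gene, by 0.53 (SE 0.18, adjusted p = 0.0371). Nitrogen raised 3 of the 7, against 0.699% of all probe sets called higher. They were G6PD3 by 2.84 (SE 0.36, adjusted p = 0.00019), PGD3 by 1.61 (SE 0.30, adjusted p = 0.00669) and G6PD2 by 1.19 (SE 0.16, adjusted p = 0.000212), in the term in which GPT2 stood at -0.59 and was not called. Of the 7 genes, 4 (G6PD2, G6PD3, G6PD4 and PGL1) are named only by the study's tables of regulated genes, drawn from these same arrays. The counts for light and nitrogen were thus partly fixed by the naming.

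In sucrose metabolism and sugar transport, 2 of 6 genes rose, 2 fell and 2 were not called (median -0.17). SPS4F, a sucrose phosphate synthase, rose by 0.56 (SE 0.19), and the hexokinase HXK2 by 0.40 (SE 0.10). The monosaccharide transporter STP1 fell by 2.69 (SE 0.14, adjusted p = 6e-11), with signals of 981 to 3322 in light and 10224 to 19670 in the dark. The phloem sucrose transporter SUC2 fell by 0.81 (SE 0.18). Of the 6, 4 (HXK2, STP1, SUC2 and CWINV1) are named only by the study's tables of regulated genes, so the count for light was partly fixed by the naming. For nitrogen 0 of the 6 were called and 2 had an unadjusted p under 0.05, against 0.954% and 9.42% of all probe sets.

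All 3 measured genes of the trehalose 6-phosphate synthase family (of 8 listed), which belong to its class without clear catalytic activity, fell in light. All 3 are named only by the study's tables of regulated genes, drawn from these same arrays, so this count was partly fixed by the naming. Of all probe sets, 11.7% were called lower in light. TPS9 fell by 2.67 (SE 0.15, adjusted p = 1.1e-10), with signals of 142 to 829 in light and 933 to 2547 in the dark. TPS10 fell by 1.56 (SE 0.13, adjusted p = 2.3e-08) and TPS6 by 0.80 (SE 0.14, adjusted p = 0.000163). With nitrogen, TPS9 rose by 0.97 (SE 0.15, adjusted p = 0.00136) and TPS10 by 0.71 (SE 0.13, adjusted p = 0.00787). For genotype 0 of the 30 genes were called and 0 had an unadjusted p under 0.05, against 0.00879% and 3.3% of all probe sets.

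**Figure D5:**
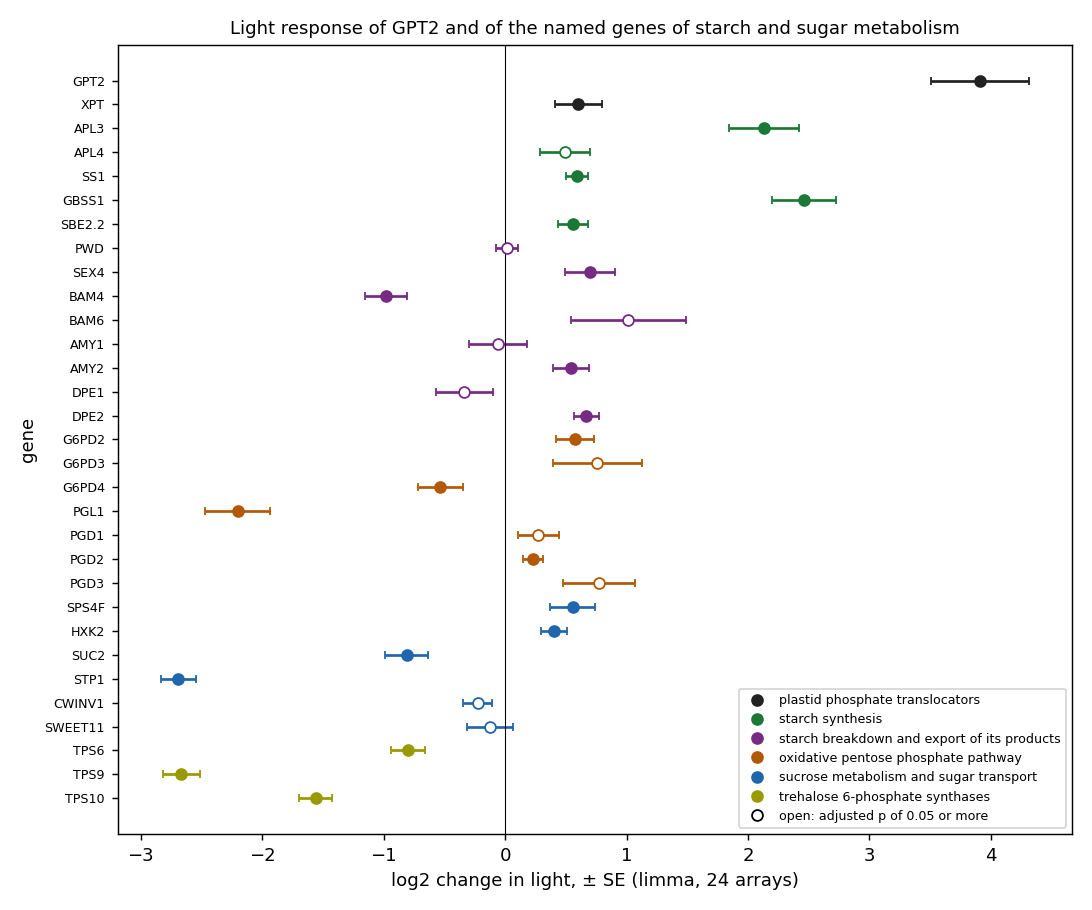
Log2 change in light with its SE (limma, 24 arrays) for GPT2 and the 30 other named genes of the lists, coloured by list; open symbols have an adjusted p of 0.05 or more. GPT2, at 3.91, has the largest value, followed by GBSS1 (2.46) and APL3 (2.13), and STP1 and TPS9 have the lowest.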

How the data were processed

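RNA of whole seedlings from 24 samples was hybridized to Affymetrix ATH1 arrays. The authors deposited linear MAS signal intensities of 22810 probe sets on each array, without pooling replicates. They scaled each array, and the mean without 2% of values at each end was 500. Precision is limited by the 3 arrays in a group, and arrays carry no read depth.

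The signal was converted to log2 without an offset. After 64 control probe sets were set aside, 22746 were fitted with limma 3.58.1 (lmFit, and eBayes with a trend) in R 4.3.3, with 8 group means and Benjamini-Hochberg adjustment, threshold 0.05. The fit was tested on simulated data. Exact permutation tests of GPT2, likeness and figures used Python 3.11.15. Names came from the platform table (13436 probe sets with 1 locus) and the study's lists (874 more), and 7856 had none.

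The members, gene lists and tests were chosen with earlier results of these data known. Genes named were GPT2, named plastid translocators, the 8 most and 4 least like GPT2, the 4 with the most similar deviations, and per list the 3 largest called rises and falls for light and up to 6 called for nitrogen or genotype. Alternatives were a replicate block, plain ANOVA on linear and log2 signal, quantile and median scaling, no dim probe sets, an offset of 32, no trend, 1 genotype alone, and arrays left out. Those without arrays of number 3 were chosen after seeing the data. The study's filter on detection calls was not applied.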

Additional observations from a re-analysis of the deposited data

Results flagged for a closer look

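In bzip1-1, the measured change of GPT2 with nitrogen had opposite signs in light and in the dark, but a difference between these responses was not shown. With nitrogen, GPT2 was lower in 3 of 3 pairs of arrays in light (fold 0.298 to 0.791, where 4784 of 22746 probe sets were lower in all 3) and higher in 3 of 3 in the dark (fold 1.14 to 4.37, where 3636 were higher in all 3). The response in light minus that in the dark was -1.79 on the log2 scale (SE 1.14, limma adjusted p = 1.00), and neither response was called. Without number 2 of bzip1-1 +N-L the response in the dark was 0.11 and the difference -0.94, and without number 3 of bzip1-1 +N+L the response in light was -0.13 and the difference -1.10. The same difference in WT-sib was -0.76 (SE 1.14, adjusted p = 1.00), and -0.26 without the pair of arrays that went against their labels. Single outlying arrays were not tested for, and probe sets lower in all pairs in light and also higher in all pairs in the dark were not counted.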

How the results depend on the processing

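The light term of GPT2 kept its call under every alternative fitted, and over the fits that left out 1 array each it ran from 3.74 to 4.18. Of the other fits, 283 values of GPT2 or its likeness kept direction and call, 6 lost the call, 4 gained it, 9 changed sign and 3 counts moved. Arrays with the same number had deviations that correlated over probe sets with a median r of 0.245 (65 of 84 pairs above 0.1, lowest -0.0722). For arrays of different numbers the median r was -0.0775 (3 of 168 pairs above 0.1). Arrays of a number thus shared deviations in part, though not in every pair. The main fit has no block for the numbers, and its calls leave this shared part in the residual. A replicate block gave the light response of bzip1-1 in +N medium (2.71) an adjusted p of 0.00889, which was called, and no other call changed. It raised the probe sets called to 7238 for light (5660 without it) and 652 for nitrogen (217 without it). The block lowered the SE of the light and nitrogen terms of GPT2 from 0.40 to 0.31. The adjusted p of the nitrogen term went from 0.753 to 0.421. With labels exchanged within pairs of 1 number, the exact permutation p was 0.000488 for light, the smallest possible, and 0.0186 for N*G (0.0649 adjusted over 7 terms). For N*G the genotype labels were exchanged, which assumes no genotype difference in any treatment. The light response of bzip1-1 in +N medium was also called without dim probe sets (2.71, adjusted p = 0.0474). It was called too without the +N+L arrays of number 3 (3.40, 0.0077) and without all arrays of number 3 (2.94, 0.0407). Without single arrays it ran from 2.25 to 3.56.

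Plain ANOVA on linear signal, in signal units, turned the genotype term to -284, N*L*G to 876 and the genotype difference in +N+L to -98.4. It lost the light response of bzip1-1 in -N medium (1470, adjusted p = 0.189) and of WT-sib in +N medium (1067, 0.418), and the joint response in bzip1-1 (956, 0.452) and WT-sib (1022, 0.422). That in WT-sib (2.98) also missed the threshold by ANOVA on log2 signal (0.0566) and with WT-sib arrays alone (0.0561). The genotype term was -0.0085 without the +N+L arrays of number 3, and the genotype difference in +N+L was -0.20 in both fits without number 3. There L*N in WT-sib was 0.31 without the +N+L arrays and 0.40 without all 8, where the nitrogen change in the dark over both genotypes was -0.14. The cause of these changes was not tested. Without single arrays, the ranges were -0.18 to 0.26 for the genotype term, -0.89 to 0.87 for genotype in +N+L, 3.16 to 4.91 for light in WT-sib +N, 2.30 to 4.05 for the joint treatment in WT-sib, -0.38 to 0.28 for nitrogen in the dark and -1.44 to 0.31 for L*N in WT-sib. Of the 8 transcripts most like GPT2, 6 were shared after quantile normalization, 5 by Spearman's rho, 2 over the light arrays alone and 0 over the dark arrays alone.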
